A study of Homo sapiens with 18 samples.

Results

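The 7 genes described here, FDXR, TP53I3, TIGAR, SESN1, SESN2, GLS2 and SCO2, are targets of the transcription factor p53 that act in redox chemistry and metabolism, out of 18475 genes in the expression table. They were selected on a measured value, the increase of FDXR in irradiated A549 cells, so the A549 values of the members are given as a description, with no test. By fold change, FDXR stood at rank 2 of the 11993 genes tested in A549. RNA-seq had been performed on 3 human lung cell lines, BEAS-2B (labelled as a lung epithelial cell line), H446 (a small cell lung cancer cell line) and A549 (a lung adenocarcinoma cell line), to ask how lung epithelial and lung cancer cells differ in their response to ionizing radiation. Each line had 3 control libraries and 3 libraries made 24 h after a dose of 10 Gy of X-rays. Every library carries the genotype label "Wild type", which does not name a gene, and each line is 1 line bought from a cell bank. The labels do not say whether the libraries of a group came from separate cultures, so p-values measure the spread between these libraries, which may be technical.

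The protein p53 is held at a low level in unstressed cells by the ubiquitin ligase MDM2 and accumulates after DNA breaks, when it switches on genes that stop the cell cycle, repair DNA or kill the cell. A further group of its targets tunes metabolism: some divert sugar into the pentose phosphate pathway, some feed glutathione and mitochondrial respiration, and some reduce quinones or restrain growth signalling. These genes are often read as antioxidant arms of the p53 response, although TP53I3 is also known for raising reactive oxygen species.

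Values were taken to be FPKM, reads normalized for transcript length and library size, and were analysed as log2(FPKM + 1) with limma. A gene was tested in a line when 3 or more of its 6 libraries reached 1 FPKM. Fold changes on this scale understate the change of low genes. A Benjamini-Hochberg adjusted p under 0.05 over all genes tested was called a change. The library totals ran from 461255 to 529936, and libraries of a line correlated at Pearson's r of 0.992 or above. The epithelial keratins KRT8 and KRT18 were high in every line, at 1246 to 1393 FPKM for KRT8 in H446. The other epithelial markers were uneven: KRT19 was 9.18 to 12.01 FPKM in BEAS-2B, 1.51 to 2.47 in H446 and 23.28 to 27.42 in A549, CDH1 was at most 0.54 FPKM in BEAS-2B and 0.74 in H446 against 6.74 to 11.34 in A549, and EPCAM did not exceed 3.06 FPKM in BEAS-2B, 1.29 in H446 or 0.6 in A549. The neuroendocrine markers of small cell lung cancer were near 0 in H446, where CHGA reached at most 0.05 FPKM and SYP 0.29, and both were higher in the adenocarcinoma line A549, at 0.81 to 1.19 and 1.65 to 2.13 FPKM, so the labelled type of this line is not seen in these 2 markers (the others were not analysed here). Of the leukocyte markers, PTPRC did not exceed 0.09 FPKM in any library, while CD14 was 7.38 to 9.74 FPKM in BEAS-2B and at most 0.55 in H446 and 1.12 in A549. Among endothelial markers, PECAM1 was 3.4 to 4.03 FPKM in H446, while VWF and CDH5 did not exceed 0.05 in any line. Among fibroblast markers, PDGFRB was 9.78 to 14.41 FPKM in BEAS-2B and DCN 3.06 to 4.36 in H446. COL1A1 was at least 4.08 FPKM in every line and COL1A2 at most 0.66. The part of these markers in the results was not tested.

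Libraries differed in 2 ways that touch the results. In irradiated BEAS-2B cells, replicate 2 stood near the controls for most p53 targets: CDKN1A, the cell cycle inhibitor p21, was 102.24 FPKM there against 309.73 and 487.79 in the other 2 irradiated libraries and 79.93 to 86.36 in the controls, and MDM2 was 16.17 against 47.49 and 87.83. This library also had the strongest dependence of expression on transcript GC content in its line (Spearman's rho 0.71). Most other BEAS-2B libraries showed such a dependence too, with rho of -0.63 in control 1, -0.38 in control 3, 0.45 in irradiated replicate 1 and -0.31 in irradiated replicate 3. BEAS-2B results are therefore given with and without irradiated replicate 2, a choice made after its values were seen. Because p53 targets, the members among them, set this library apart, calls and adjusted p-values without it describe the other libraries. They are not a test of the members. In H446, the GC dependence separated the groups, with rho of 0.35 to 0.46 in controls and -0.50 to -0.11 in irradiated libraries, and GC and irradiation cannot be told apart in the uncorrected values.

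Promoter sequence was available from RefSeq (GRCh38.p14) for 6 of the 7 members, in 9 windows of 300 bases that run from 250 bases before to 50 after an annotated transcription start. A match to the p53 half-site, the 10-base element that p53 binds in tandem copies, was found in 2 of the 9 windows, against 6.63% of the 35116 windows of all genes. The match in FDXR began 11 bases before its upstream transcription start, and the match in SESN1 began 49 bases before the most downstream of its 3 annotated starts. The 250 bases upstream of these starts are shown because FDXR and SESN1 had the highest fold changes of the members in A549, and the upstream bases of TP53I3, the member with the highest fold change in BEAS-2B, are shown beside them, with no match. Capitals mark GC boxes (GGGCGG or its reverse complement CCGCCC, present in 45% of all windows) and, as the last run of capitals in FDXR and SESN1, the half-site. FDXR held 6 GC boxes in these bases, SESN1 1 and TP53I3 none. A match in letters is not a measurement of binding.
FDXR, chr17:74872995-74873244, minus strand: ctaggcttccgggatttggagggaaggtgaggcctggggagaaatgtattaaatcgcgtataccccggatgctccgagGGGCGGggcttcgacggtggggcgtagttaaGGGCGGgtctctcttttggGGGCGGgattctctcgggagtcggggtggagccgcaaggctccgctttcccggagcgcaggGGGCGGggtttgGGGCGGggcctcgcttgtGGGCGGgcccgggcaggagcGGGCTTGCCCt
SESN1, chr6:109008989-109009238, minus strand: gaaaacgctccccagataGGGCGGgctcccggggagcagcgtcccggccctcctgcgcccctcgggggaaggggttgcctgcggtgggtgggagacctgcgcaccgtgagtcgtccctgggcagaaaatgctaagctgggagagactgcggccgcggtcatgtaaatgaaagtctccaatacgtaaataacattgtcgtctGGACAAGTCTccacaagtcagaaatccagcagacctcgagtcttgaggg
TP53I3, chr2:24084835-24085084, minus strand: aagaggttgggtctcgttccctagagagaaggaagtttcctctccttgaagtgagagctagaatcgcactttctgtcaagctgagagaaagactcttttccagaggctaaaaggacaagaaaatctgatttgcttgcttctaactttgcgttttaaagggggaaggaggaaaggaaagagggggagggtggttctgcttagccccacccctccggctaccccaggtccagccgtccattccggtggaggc

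FDXR (Entrez 2232, chr17:74862497-74872994 in GRCh38.p14) encodes ferredoxin reductase, the mitochondrial flavoprotein that passes electrons from NADPH to ferredoxins for steroid synthesis and iron-sulphur cluster assembly. Control A549 libraries held 45.0, 46.95 and 42.37 FPKM and irradiated ones 156.89, 156.17 and 154.04. The irradiated libraries lay within 3 FPKM of each other and far above the controls, at 3.48 times their mean (44.8 ± 2.3 to 156 ± 1.48 FPKM, mean ± SD, n = 3). In BEAS-2B the control values were 27.58, 28.76 and 29.67 FPKM and the irradiated values 52.46, 30.02 and 68.19. Replicates 1 and 3 were 1.83 and 2.38 times the control mean, while replicate 2 sat just above the highest control. The log2 fold change over the 3 libraries was 0.71 (SE 0.22, adjusted p = 0.275) and was not called, and without replicate 2 it was 1.04 (SE 0.11, adjusted p = 5.3e-04). Leaving out replicate 3, the highest library, lowered it to 0.46. H446 gave 4.05, 3.46 and 3.77 FPKM in controls and 3.91, 3.68 and 4.11 after irradiation. The H446 groups overlapped in part, with a log2 fold change of 0.04 and a 95% interval of -0.12 to 0.20 (adjusted p = 0.663). With the GC trend removed it was 0.18, with an interval of 0.03 to 0.34, and was not called (adjusted p = 0.0705). In bulk RNA, a change in the share of responding cells and a change in RNA per cell cannot be told apart. No exon of FDXR overlaps another gene in GENCODE 29.

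TP53I3 (Entrez 9540, chr2:24077433-24084834), also called PIG3, encodes an NADPH-dependent quinone reductase. BEAS-2B controls held 6.18, 5.23 and 5.37 FPKM of it and irradiated libraries 20.84, 6.38 and 35.81. It had the highest log2 fold change of the members in this line, at rank 7 of 11734 genes, and again replicate 2 was barely above the controls, at 1.14 times their mean against 3.73 and 6.4 times in replicates 1 and 3. This gave a log2 fold change of 1.46 (SE 0.43, adjusted p = 0.26), and one of 2.11 (SE 0.18, adjusted p = 1.4e-04) without that library. Without replicate 3 it was 0.95. In A549 the level was already 92.85, 89.82 and 92.8 FPKM in the controls and reached 159.32, 160.51 and 143.97, a ratio of means of 1.68. All A549 libraries, controls included, were above every BEAS-2B library. H446 gave 5.34, 6.89 and 5.73 FPKM in controls and 7.67, 7.53 and 5.84 after irradiation. Replicates 1 and 2 were above the controls and replicate 3 was among them, and the log2 fold change of 0.20 (SE 0.10, adjusted p = 0.16) was not called, although it was with the GC trend removed (0.29, adjusted p = 0.0432) and without irradiated replicate 3 (0.31).

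TIGAR (Entrez 57103, chr12:4321213-4360028) encodes a phosphatase that degrades fructose 2,6-bisphosphate, which slows glycolysis and favours the pentose phosphate pathway. Its BEAS-2B levels were 3.07, 2.81 and 3.66 FPKM in controls and 4.58, 3.14 and 5.46 after irradiation. The groups overlapped through replicate 2 alone, which was at 0.987 times the control mean. Its log2 fold change was 0.35 (SE 0.15, adjusted p = 0.395), and 0.53 (SE 0.12, adjusted p = 0.0476) without replicate 2 but 0.21 without replicate 3. In A549 TIGAR was 5.44, 5.18 and 5.32 FPKM in controls and 8.31, 8.48 and 7.99 after irradiation, 1.55 times higher with no overlap. H446 libraries were at 2.2, 2.46 and 2.39 FPKM in controls and 2.62, 2.77 and 2.78 after irradiation. All irradiated H446 libraries were above the controls, by a log2 fold change of 0.15 (SE 0.07) that was not called (adjusted p = 0.108), and that was 0.09 with the GC trend removed (adjusted p = 0.304) and 0.23, and called, with quantile normalization. TIGAR shares 42.6% of its exon bases with AC008012.1 on the same strand, so reads could be split between them.

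The sestrins restrain the growth kinase complex mTORC1 and help to reactivate peroxiredoxins, and SESN1 is a long-known p53 target among them. SESN1 (Entrez 27244, chr6:108984309-109094846) was 5.86, 5.39 and 5.97 FPKM in control A549 cells and 18.06, 19.37 and 17.39 after irradiation, a ratio of means of 3.18. In BEAS-2B it was 3.93, 2.62 and 3.31 FPKM in controls and 9.65, 3.08 and 11.88 after irradiation. Replicates 1 and 3 were 2.94 and 3.61 times the control mean and replicate 2 was 0.937 times it. Over all libraries the log2 fold change came to 0.95 (SE 0.34, adjusted p = 0.306), and to 1.46 (SE 0.14, adjusted p = 2.4e-04) without replicate 2 but 0.63 without replicate 3. H446 showed 2.58, 2.81 and 3.3 FPKM in controls and 3.28, 2.74 and 3.03 after irradiation, overlapping groups with a log2 fold change of 0.05 (95% interval -0.15 to 0.24, adjusted p = 0.703) that was -0.02 with the GC trend removed.

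SESN2 (Entrez 83667, chr1:28259518-28282491), the sestrin that is also induced by nutrient and endoplasmic reticulum stress, was the member with opposite directions in BEAS-2B and A549. In BEAS-2B it was 2.73, 3.23 and 2.88 FPKM in controls and 6.39, 4.14 and 6.34 after irradiation. All 3 irradiated libraries, replicate 2 included at 1.4 times the control mean, were above every control. The log2 fold change of 0.73 (SE 0.14) still missed the threshold over all genes (adjusted p = 0.241), and was 0.90 (SE 0.10, adjusted p = 7.0e-04) without replicate 2. In A549 it went the other way, from 15.17, 16.05 and 17.59 FPKM in controls to 11.45, 10.67 and 9.83, a ratio of means of 0.655 with every irradiated library below every control. In H446 it was 4.0, 3.6 and 3.69 FPKM in controls and 4.36, 3.85 and 4.15 after irradiation. That difference of 0.10 (SE 0.07) was not called (adjusted p = 0.254), but was 0.22 (adjusted p = 0.0251) once the GC trend was removed. After irradiation the mean SESN2 level was still lower in BEAS-2B than in A549 (5.62 ± 1.28 against 10.6 ± 0.81 FPKM, SD, n = 3). SESN2 exons overlap no other gene.

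GLS2 (Entrez 27165, chr12:56470952-56488161) encodes the liver-type glutaminase, which turns glutamine into glutamate and so feeds glutathione synthesis and the citric acid cycle. In BEAS-2B it was 2.34, 1.81 and 2.27 FPKM in controls and 3.62, 1.89 and 5.92 after irradiation. Replicate 2 lay within the controls and replicates 1 and 3 above them, for a log2 fold change of 0.53 (SE 0.24, adjusted p = 0.412) and of 0.85 (SE 0.16, adjusted p = 0.0205) without replicate 2. Without replicate 3, the highest library, it was 0.22. In H446 it was 0.94, 0.61 and 0.73 FPKM in controls and 0.35, 0.45 and 0.48 after irradiation, lower in all 3 libraries. GLS2 failed the filter on low values in H446 and in A549, and with no filter the H446 log2 fold change was -0.30 (SE 0.08, adjusted p = 0.0712). In A549 it was nearly absent, at 0.06, 0.06 and 0.08 FPKM in controls and 0.31, 0.16 and 0.23 after irradiation. A single read was worth about 0.026 FPKM of GLS2, so the A549 controls rest on about 3 reads or fewer per library and no fold is given. GLS2 shares 77.1% of its exon bases with SPRYD4 on the opposite strand, and no strand setting is stated for the libraries. SPRYD4 was 3.93 ± 0.421 FPKM in control and 3.42 ± 0.0854 in irradiated BEAS-2B, 4.61 ± 0.512 and 3.85 ± 0.0945 in H446, and 2.12 ± 0.519 and 2.76 ± 0.161 in A549 (SD, n = 3), and its part in the GLS2 values was not tested.

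SCO2 (Entrez 9997, chr22:50523568-50526442) encodes a copper chaperone needed to assemble cytochrome c oxidase, the terminal enzyme of the respiratory chain. In H446 it was 9.69, 10.25 and 8.0 FPKM in controls and 6.07, 6.02 and 8.03 after irradiation. Replicates 1 and 2 were below every control and replicate 3 level with the lowest. The log2 fold change of -0.42 (SE 0.11, adjusted p = 0.0106) was the only call among the members in H446, and it was lost with the GC trend removed (-0.24, SE 0.11, adjusted p = 0.132) and with no filter on low values (adjusted p = 0.118). In BEAS-2B SCO2 was 7.03, 6.55 and 10.17 FPKM in controls and 6.73, 8.26 and 8.22 after irradiation, overlapping groups with a log2 fold change of -0.01 (95% interval -0.33 to 0.30) whose sign was not stable. In A549 it was 6.48, 6.07 and 6.28 FPKM in controls and 7.11, 6.88 and 7.37 after irradiation, 1.13 times higher. SCO2 shares 24.9% of its exon bases with TYMP on the same strand and 36.7% with the antisense gene U62317.2. TYMP was 12 ± 1.11 FPKM in control and 11.4 ± 1.32 in irradiated H446 (SD, n = 3), and 0.65 ± 0.0917 and 0.547 ± 0.0862 in BEAS-2B.

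**Figure D1:**
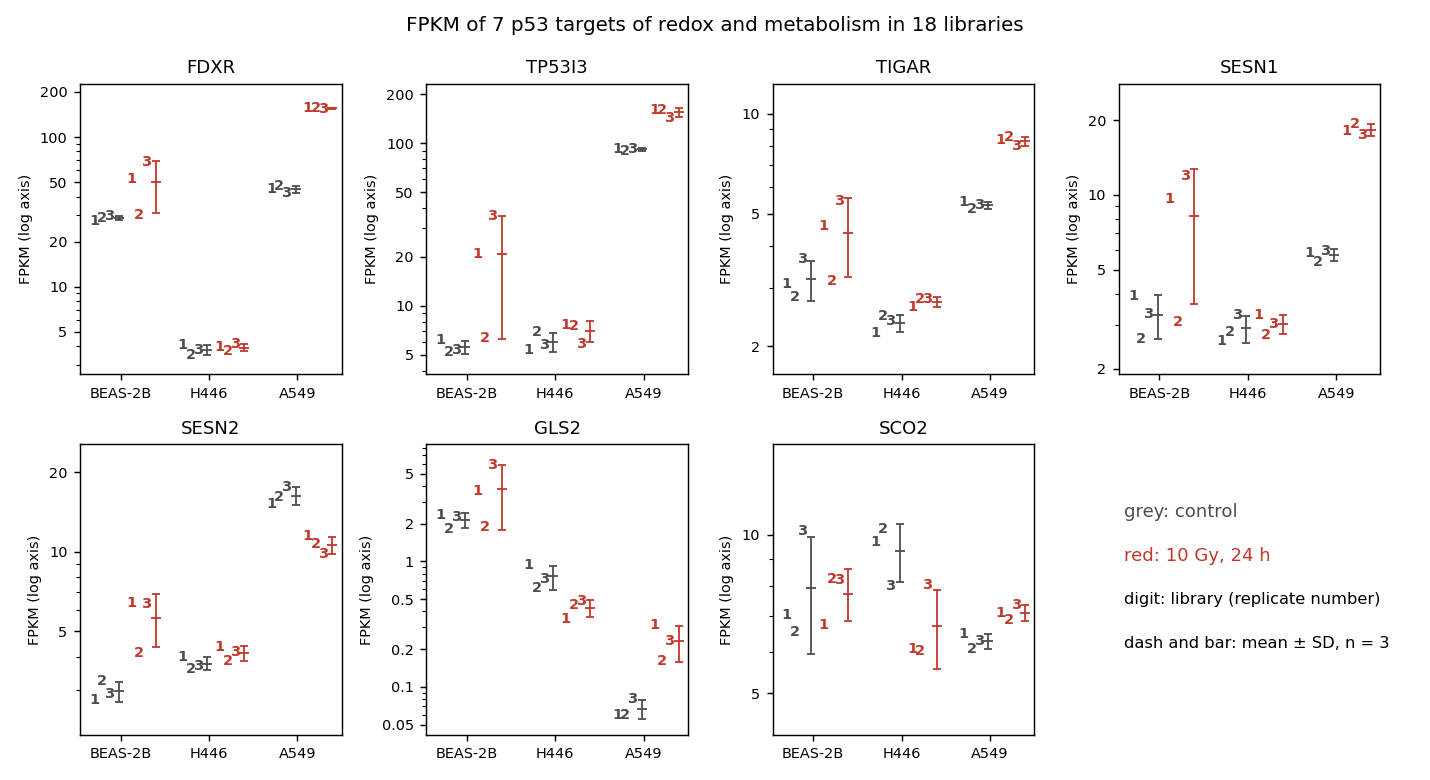
FPKM (log axes) of the 7 genes in all 18 libraries, with digits for the replicate number, grey for control and red for 10 Gy, and mean ± SD (n = 3) beside each group. The digit 2 in red stands near the grey BEAS-2B controls for every gene but SESN2, and SESN2 in A549 is the case where a red group sits below its controls with a level above 1 FPKM and no overlap.

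Counted per line, no member was called in BEAS-2B with all libraries by limma, and neither was any of the 11734 genes tested (0.00% called). With all 18 libraries in 1 fit, which shares the spread across the lines, the same BEAS-2B contrast called 4 members higher (FDXR, TP53I3, SESN1 and SESN2), where 3.94% of 13071 genes were called higher. In the fit of BEAS-2B alone, at an unadjusted p under 0.05 there were 5 members of 7 (FDXR, TP53I3, TIGAR, SESN1 and SESN2) and 1446 genes of all. The median log2 fold change of the members was 0.71, against 0.00 over all genes. With the GC trend removed this median was 0.60, against 0.01 over all genes, and no gene was called by limma (smallest adjusted p 0.464). Without replicate 2, 6 of the 7 members were called higher (all but SCO2), where 1.92% of 11680 genes were called higher, and the members' median was 0.90. Since that library was set apart on p53 targets, these 6 calls are a description. In 3 members (FDXR, TP53I3 and SESN2) all irradiated libraries exceeded all controls, a pattern shown by 7.48% of genes, and none had all irradiated libraries below, a pattern shown by 8.87%.

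In H446, 6 members passed the filter. None was called higher by limma, where 14.8% of genes were, and SCO2 was called lower, where 23.6% of genes were. SCO2 was also the only member with an unadjusted p under 0.05. With the GC trend removed, TP53I3 and SESN2 were called higher, where 11.1% of 11349 genes were, and none lower, where 21.1% were. The members' median log2 fold change was 0.07 against -0.03 over all genes without the correction, and 0.14 against -0.03 with the GC trend removed. TIGAR was the only member of the 6 with all irradiated libraries above the controls (20.4% of genes), and none of the 6 had all of them below (29.9% of genes). In A549, the line that gave the selection, 5 of the 6 members that passed the filter were higher and 1 lower, beside 25.3% and 26.4% of genes past the threshold in these directions. All irradiated libraries were above the controls in FDXR, TP53I3, TIGAR, SESN1 and SCO2 and below them in SESN2, beside 29.0% and 29.5% of genes, and nothing is read from these A549 counts.

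**Figure D2:**
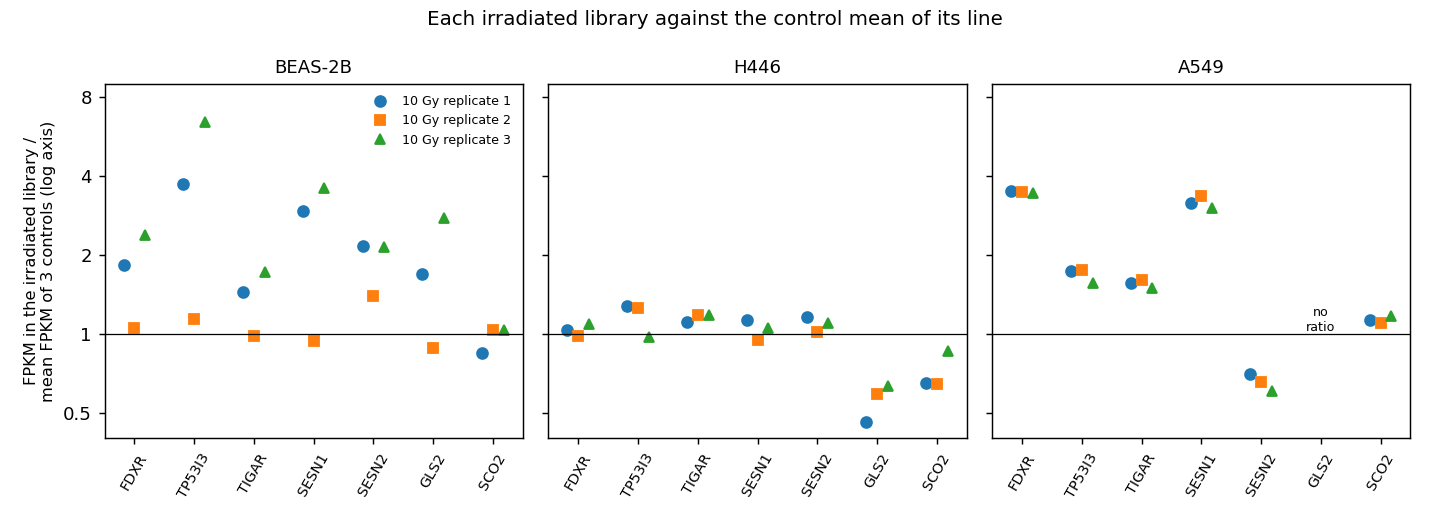
FPKM in each irradiated library divided by the mean of the 3 controls of its line (log axis), by gene and line, with a symbol per replicate number. BEAS-2B replicate 2 (squares) lies between 0.883 and 1.4 while replicates 1 and 3 reach 3.73 and 6.4 for TP53I3, and the 3 A549 libraries lie close together; no ratio is drawn for GLS2 in A549, where controls hold about 3 reads or fewer.

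**Figure D3:**
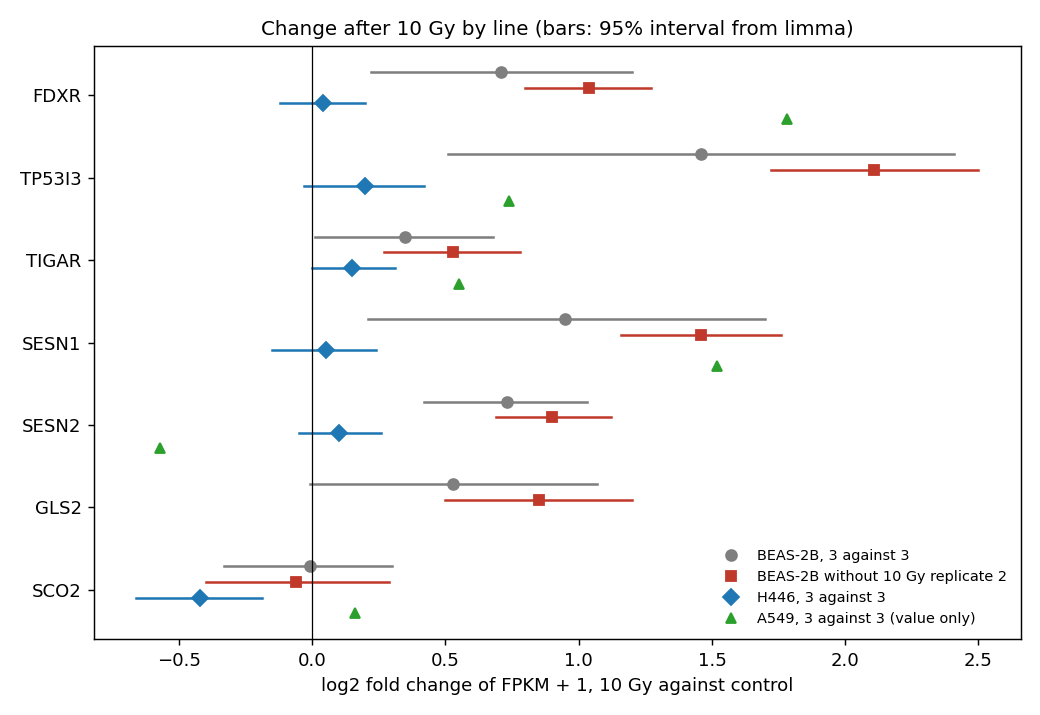
Log2 fold change of FPKM + 1 after 10 Gy for each gene, with 95% intervals from limma for BEAS-2B with and without irradiated replicate 2 and for H446, and the value alone for A549. Leaving out replicate 2 moves 6 BEAS-2B points to the right and shortens their bars, and the H446 points other than SCO2 stay near 0; GLS2 has no H446 or A549 point because it failed the filter there.

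Whether the response of BEAS-2B differed from that of H446 was tested in a single fit of all 18 libraries. The log2 fold change of SESN2 was higher in BEAS-2B by 0.63 (SE 0.15, adjusted p = 0.00828). It was the 1 member called of the 6 that passed the filter in both lines, where 13.7% of 13071 genes were called higher in BEAS-2B. The differences for FDXR (0.67, adjusted p = 0.0522), TP53I3 (1.26, adjusted p = 0.0617) and SESN1 (0.91, adjusted p = 0.0818) missed the threshold. TIGAR differed by 0.20 with a 95% interval of -0.13 to 0.53, and SCO2 by 0.41 with one of 0.04 to 0.79 (adjusted p = 0.103). Without BEAS-2B irradiated replicate 2, 5 of these 6 members (all but SCO2) were called higher in BEAS-2B, where 11.8% of genes were. FDXR then differed by 0.99 (adjusted p = 1.3e-05), TP53I3 by 1.91 (adjusted p = 7.9e-06) and SESN1 by 1.42 (adjusted p = 8.4e-06). Leaving out BEAS-2B irradiated replicate 3 instead lowered the differences to 0.41 for FDXR, 0.75 for TP53I3, 0.59 for SESN1 and 0.05 for TIGAR. With the GC trend removed from all 18 libraries, none of the 6 was called by limma, where 7.81% of 12888 genes were called higher in BEAS-2B, and SESN2 differed by 0.44 (adjusted p = 0.0958), FDXR by 0.45 (adjusted p = 0.3) and SCO2 by 0.14 (95% interval -0.27 to 0.54, adjusted p = 0.697). At an unadjusted p under 0.05 there were then 3 of the 6 (TP53I3, SESN1 and SESN2) and 3504 genes of all. GLS2 entered this fit only through its BEAS-2B libraries, where it was high enough to pass the filter, so its differences of 0.83 with all libraries, 1.15 without replicate 2 and 0.74 with the GC trend removed (0.52 without replicate 3) are values with no test.

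**Figure D4:**
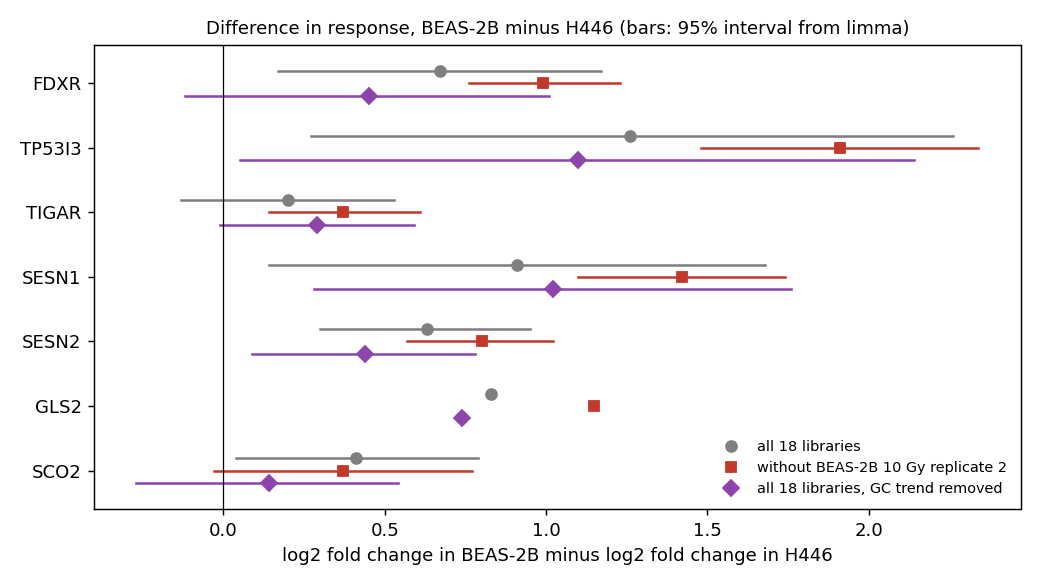
Difference between the log2 fold changes of BEAS-2B and H446 for each gene, with 95% intervals from limma, for all 18 libraries, without BEAS-2B irradiated replicate 2, and with the GC trend removed. GLS2 is drawn as values alone because it passed the filter only in BEAS-2B. With all libraries 5 of 6 intervals lie above 0 (all but that of TIGAR), and without replicate 2 also 5 (all but that of SCO2). Without replicate 2 all intervals but that of SCO2 are shorter than with all libraries. The GC correction lowers the SESN2 difference from 0.63 to 0.44.

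Against A549, the response of BEAS-2B differed in size by gene, and these values are a description because the A549 contrast gave the selection. The BEAS-2B log2 fold change minus that of A549 was -1.06 for FDXR and -0.56 for SESN1, both being smaller in BEAS-2B. It was 0.72 for TP53I3 and 1.30 for SESN2, the gene that was lower after irradiation in A549. Without irradiated replicate 2 these became -0.74 for FDXR, -0.05 for SESN1, 1.36 for TP53I3 and 1.47 for SESN2, so that the SESN1 gap nearly closed and the TP53I3 gap widened.

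Levels in the untreated lines were compared by test between H446 and BEAS-2B, in a fit of the 9 control libraries. The A549 controls took part in the contrast behind the selection, so their levels are set beside the others with no test. H446 and BEAS-2B controls differed in 3 of the 6 members that passed the filter in every line (FDXR, TIGAR and SESN2), where 82.6% of 12854 genes were called. GLS2 is left out of this count, since its H446 controls were under the filter. FDXR ranked A549 (44.8 ± 2.3 FPKM), BEAS-2B (28.7 ± 1.05) and H446 (3.76 ± 0.295, SD, n = 3). The log2 difference of H446 minus BEAS-2B was -2.64 (SE 0.06, adjusted p = 3.9e-13). TP53I3 was 91.8 ± 1.74 FPKM in A549, above 5.99 ± 0.806 in H446 and 5.59 ± 0.513 in BEAS-2B, which did not differ beyond their spread (adjusted p = 0.36).

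TIGAR controls ran from A549 (5.31 ± 0.13 FPKM) through BEAS-2B (3.18 ± 0.436) to H446 (2.35 ± 0.135, SD, n = 3), with a log2 difference of H446 minus BEAS-2B of -0.32 (SE 0.08, adjusted p = 0.00199). SESN1 was highest in A549 (5.74 ± 0.308 FPKM), while BEAS-2B (3.29 ± 0.655) and H446 (2.9 ± 0.368) were not told apart (adjusted p = 0.262), although they were without BEAS-2B control 2 (log2 difference -0.25 against -0.13 with it). SESN2 ran from A549 (16.3 ± 1.22 FPKM) to H446 (3.76 ± 0.21) and BEAS-2B (2.95 ± 0.257), with a log2 difference of H446 minus BEAS-2B of 0.27 (SE 0.07, adjusted p = 0.00371). BEAS-2B controls held 2.14 ± 0.288 FPKM of GLS2, those of H446 0.76 ± 0.167 and those of A549 0.0667 ± 0.0115. SCO2 ran from 9.31 ± 1.17 FPKM in H446 through 7.92 ± 1.97 in BEAS-2B to 6.28 ± 0.205 in A549, and H446 and BEAS-2B were not told apart (0.23, 95% interval -0.05 to 0.50, adjusted p = 0.116), although they were without BEAS-2B control 3 (0.40).

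Across all 18 libraries, with the control mean of its line subtracted from each value, the genes most like FDXR among 9374 genes were TRIM22 (Pearson's r 0.987), ZMAT3 (0.985), XPC (0.985), TP53INP1 (0.979) and FAS (0.975). These libraries share their lines and treatment, and the A549 libraries behind the selection enter the measure. XPC, the damage sensor of nucleotide excision repair, went from 31.2 to 58.8 FPKM in mean in A549 and from 15.4 to 19.7 in BEAS-2B, and stayed at 21.4 in both H446 groups. Of the other members, SESN1 (0.95) and TIGAR (0.91) followed FDXR most closely, TP53I3 (0.64), GLS2 (0.58) and SCO2 (0.39) less so, and SESN2 had a negative value (-0.29). SESN2 and FDXR moved in opposite directions in A549. In BEAS-2B both were above the control mean in every irradiated library (log2 0.91, 0.38 and 0.90 for SESN2 and 0.85, 0.06 and 1.22 for FDXR).

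Other redox and metabolic genes that p53 is commonly described to induce were read from a list of 16. In BEAS-2B none of the 15 that passed the filter was called by limma with all libraries, where 6 had an unadjusted p under 0.05, beside 1446 of all 11734 genes tested. Of the 15, 5 were called higher without irradiated replicate 2, beside 1.92% of all genes. The ribonucleotide reductase subunit gene RRM2B rose by 0.82 (SE 0.11, adjusted p = 0.00414) in that fit, the stress protein gene TP53INP1 by 0.95 (adjusted p = 5.1e-04), the coenzyme A synthesis gene PANK1 by 0.62 (adjusted p = 0.0074) and the Ras-related GTPase gene RRAD by 2.10 (adjusted p = 1.0e-05). In A549, 10 of 14 were called higher and 2 lower, beside 25.3% and 26.4% of all genes. RRM2B went from 28.7 ± 0.556 to 56.6 ± 0.891 FPKM there (SD, n = 3) and TP53INP1 from 3.47 ± 0.156 to 15.9 ± 0.434. In H446, 2 of 12 were higher and 4 lower, beside 14.8% and 23.6% of all genes, with TP53INP1 among those called higher (0.30, SE 0.08, adjusted p = 0.0158). With the GC trend removed, 1 was higher and 3 lower, beside 11.1% and 21.1% of all genes, and the call for TP53INP1 was lost (0.20, adjusted p = 0.1). The list's median log2 fold change was 0.21 in BEAS-2B, 0.53 in A549 and 0.01 in H446.

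Of 17 ferredoxin, iron-sulphur cluster and mitochondrial P450 genes that work with FDXR, 14 passed the filter in A549, with 4 higher (25.3% of all genes) and 4 lower (26.4%). ISCU, the scaffold on which iron-sulphur clusters are built, rose by 0.61 (adjusted p = 1.1e-06) while the ferredoxin gene FDX2 fell by 0.48 (log2 fold change -0.48, adjusted p = 1.5e-04). H446 had 3 higher (14.8% of all genes) and 3 lower (23.6%) of 14. Of 9 cytochrome c oxidase assembly genes that work with SCO2, 2 were higher and 3 lower in A549 and 1 was lower in H446.

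Of 10 glutamine and glutathione genes that work with GLS2, 5 were higher and 2 lower of 9 in A549 (25.3% and 26.4% of all genes), and 3 higher and 5 lower of 10 in H446 (14.8% and 23.6% of all genes). The glutamine carrier gene SLC1A5 fell in A549 from 237 ± 8.45 to 111 ± 1.55 FPKM (SD, n = 3, adjusted p = 8.9e-10) and the aspartate aminotransferase gene GOT1 from 60.6 ± 1.86 to 33.6 ± 0.73 (adjusted p = 1.3e-08), while GOT1 rose in H446 by 0.30 (adjusted p = 7.7e-04). Of 12 fructose 2,6-bisphosphate and pentose phosphate genes that work with TIGAR, 6 of 10 were higher and none lower in A549, and 1 was higher and 6 lower of 10 in H446.

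Of 12 genes that work with the sestrins, 2 were higher and 5 lower in A549, and none higher and 5 lower in H446, and the counts of this list and the next 2 stand beside 25.3% higher and 26.4% lower of all genes in A549 and 14.8% and 23.6% in H446. The remaining sestrin gene, SESN3, rose in A549 by 0.57 (adjusted p = 7.2e-05), opposite in direction to SESN2, from 1.13 ± 0.0702 to 2.16 ± 0.0351 FPKM (SD, n = 3). Of 8 quinone reductase genes related to TP53I3, 4 were higher and 1 lower in A549 and 3 lower in H446. Of 6 genes commonly described as lowered by p53, 2 were higher and 1 lower in A549, the latter being the cystine carrier gene SLC7A11, which fell by 0.61 (log2 fold change -0.61, adjusted p = 7.7e-06), and 1 was lower in H446. Over these 7 lists of partner and lowered genes, none of the 67 genes that passed the filter in BEAS-2B was called by limma, with irradiated replicate 2 (7 had an unadjusted p under 0.05) or without it (6). Over all genes, 1446 of 11734 had an unadjusted p under 0.05 with that library and 1382 of 11680 without it. With the GC trend removed from H446, where 11.1% of all genes were higher and 21.1% lower, the lower calls went from 1 to 3 of the 6 genes described as lowered by p53 and from 1 to 2 of the SCO2 partners. They went from 6 to 4 for the TIGAR partners, from 5 to 4 for the sestrin partners and from 3 to 2 for the quinone reductases, and the higher calls of the FDXR partners went from 3 to 2. The other counts of the 7 lists were the same number, and GOT1 kept its call.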

How the data were processed

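RNA-seq had been performed on 18 libraries of BEAS-2B, H446 and A549 cells (3 control and 3 irradiated each), poly(A)-selected and sequenced as single-end reads of 50 bases. The deposited table holds values that the authors normalized, taken to be FPKM from their 2-decimal steps and their dependence on transcript length; the unit is not named in the sources used here. Per the labels' processing notes, HISAT2 2.0.4, Bowtie2 2.2.5, RSEM 1.2.12 and hg38 were used. The smallest values of 721 low genes corresponded to about 14000000 reads per library, an estimate, and no counting interval is given. Genes were named by Entrez number (18181 of 18475 matched to RefSeq), and the table gives no coordinates. No pair of libraries of a group shared more than 3.08% of values above 0. Groups came from the sample labels.

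Values were analysed as log2(FPKM + 1) with limma 3.58.1 (lmFit, eBayes with trend, R 4.3.3), per line, in a fit of 18 libraries for differences in response (genes past the filter in any line) and in a fit of 9 controls, read only for H446 against BEAS-2B. The script was tested on simulated data with planted changes. GC correction removed each library's trend on transcript GC content, known for 17762 genes. Alternatives covered normalization, pseudocount, filters, GC, blocks and left-out libraries. The members and gene lists were chosen with earlier results of these data known. All members were reported; from each list at most 4 genes were eligible to be named, those called with the largest changes in any line, and genes like FDXR were the 5 with the highest correlation. Replicate numbers were not taken as pairs. Promoters came from RefSeq GRCh38.p14 and overlaps from GENCODE 29. Some genes of the lists are not reported here.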

Additional observations from a re-analysis of the deposited data

Results flagged for a closer look

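SESN2 was flagged because its response differed between lines. The log2 fold change in BEAS-2B exceeded that in H446 by 0.63, a tested difference (limma, adjusted p = 0.00828) whose call was lost with the GC trend removed (0.44, adjusted p = 0.0958). It exceeded that in A549 by 1.30, and that in H446 exceeded that in A549 by 0.67. The latter 2 differences were not tested, since the A549 contrast gave the selection; the irradiated libraries lay on opposite sides of their control means, all 3 lower in A549 and all 3 higher in the other line.

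GLS2 was flagged for a difference of 0.83 between BEAS-2B and H446, given as a value because GLS2 passed the filter on low values only in BEAS-2B, and one of -0.51 between H446 and A549 that was not tested and rests on A549 values of a few reads. SCO2 was flagged for a difference of -0.58 between H446 and A549, lower than the control mean in all 3 irradiated H446 libraries and higher in all 3 of A549, which was not tested. With the GC trend removed, the difference of A549 minus H446 was 0.43 against 0.58 without the correction. The H446 log2 fold change of SCO2 was then -0.24 and was not called (limma, adjusted p = 0.132).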

How the results depend on the processing

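The number of members called in BEAS-2B was 0 and became 5 with a replicate block and 4 with all 18 libraries in 1 fit. Leaving out each library in turn gave 0 to 6 calls, with 6 only without irradiated replicate 2. In H446, 1 call became 0 at an adjusted p under 0.01 and with no filter on low values, 2 with quantile normalization, with no trend in limma and with the GC trend removed, and 1 to 2 with each library left out (2 without irradiated replicate 3). For the difference in response between BEAS-2B and H446, 2 calls became 1 at an adjusted p under 0.01 and with no filter, 0 with the GC trend removed, 5 with a replicate block and 1 to 6 with each library left out. These counts hold GLS2, which passed the filter only in BEAS-2B and whose call is not read; 6 calls came only without BEAS-2B irradiated replicate 2. The causes of these shifts were not tested. The replicate block is given for completeness: same-numbered libraries did not deviate together in every pair (correlations of -0.13 to 0.32 over the lines).

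Signs turned only where values were close to 0. The BEAS-2B log2 fold change of SCO2 was 0.0019 with equal totals and -0.1214 to 0.1611 with each library left out. In H446, FDXR ranged from -0.0033 to 0.0863 and SESN1 from -0.0133 to 0.1189 with each library left out, and SESN1 was -0.0199 with the GC trend removed. The difference of TP53I3 between H446 and BEAS-2B controls ranged from -0.0106 to 0.1471. Over 25 results for single genes (A549 and the GLS2 differences between lines left out), 409 of 453 alternatives kept the direction and the side of the threshold. Some of these alternatives cannot change the fold change, such as leaving out an A549 library for BEAS-2B against H446. The share is therefore not read as a measure of stability. Depth limits GLS2 in A549, where controls hold about 3 reads or fewer.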
